A study of Mus musculus with 6 samples.

Results

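GABAergic interneuron identity genes were followed in ribosome-bound RNA from the cortex of constitutive p11 knockout mice (p11 is the protein product of S100a10). The 9 genes were Gad1, Gad2, Slc32a1, Reln, Lhx6, Pvalb, Calb1, Calb2 and Dlx1, and neuropeptide genes were left out. They were found by gene symbol, taking each probe set of the array (a group of short probes for 1 transcript) that the platform annotation assigns to a single gene of that name. This gave 19 of the 45101 probe sets of the array, for 9 of the 18194 genes that have such a probe set. Of the 19, 14 had a mean of 50 or more in at least 1 treatment group and were tested among 22200 such probe sets, and the other 5 were below that minimum. Each gene is described by its brightest tested probe set, and its other probe sets are given beside it.

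Both groups carried the S100a10 bacTRAP transgene of line ES691 on the p11 KO background, backcrossed 3 to 5 generations on C57BL/6 from FVB. The FLX mice drank fluoxetine, a selective serotonin reuptake inhibitor, at 0.167 mg per ml with 1% saccharin for 15 to 18 days. The VEH mice drank 1% saccharin without fluoxetine for the same time. Each group had 3 arrays, labelled biological replicates 1 to 3. The sources used here give no age, sex or number of mice per array, and do not say what equal replicate numbers share. The transgene tags ribosomes in cells in which the S100a10 promoter is active, and the submitters state that some of these are not neurons. Because the RNA is from many cells, fewer cells of a type and less RNA per cell cannot be told apart in any value below.

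Inhibitory interneurons of the cortex make GABA, the main inhibitory transmitter of the brain, with the decarboxylases encoded by Gad1 and Gad2. Slc32a1 encodes the vesicular transporter that loads GABA into synaptic vesicles. Dlx1 and Lhx6 encode homeodomain transcription factors of interneuron development, Lhx6 in cells born in the medial ganglionic eminence (MGE), and the other main source of cortical interneurons is the caudal ganglionic eminence (CGE). Pvalb, Calb1 and Calb2 encode the calcium-binding proteins parvalbumin, calbindin and calretinin, by which interneuron classes are told apart, and Reln encodes the secreted glycoprotein reelin. Several of these genes are not private to interneurons: calbindin is also made by some pyramidal cells, striatal projection neurons use Gad1 and Gad2, and Cajal-Retzius cells of the cortical surface make reelin and calretinin.

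In RefSeq annotation of GRCm38.p6, 5 of the 9 genes lie on chromosome 2, which are Gad2 (22621015 to 22693877), Lhx6 (36081950 to 36105992), Gad1 (70561303 to 70602014), Dlx1 (71528113 to 71533981) and Slc32a1 (158607260 to 158615747). Calb1 lies on chromosome 4 (15881264 to 15906709), Reln on chromosome 5 (21884454 to 22344705), Calb2 on chromosome 8 (110142526 to 110168212) and Pvalb on chromosome 15 (78191112 to 78206400). The 250 bases before a transcript start in the RefSeq promoter table, which does not name the transcript, are shown for the genes of GABA synthesis and vesicular loading and for Reln. For Gad1, Gad2 and Slc32a1 this start and the window lie inside the locus given above, and for Reln the window adjoins the end of the locus. These were chosen because, by the brightest probe sets, Gad1 and Gad2 were higher in both arrays numbered 3. Slc32a1 and Reln, as given below, were not or were little different. Capitals mark the GC box GGGCGG on either strand (CCGCCC when read on the strand shown), the binding motif of Sp1-type factors.
Gad1 promoter, chr2:70561879-70562128, plus strand: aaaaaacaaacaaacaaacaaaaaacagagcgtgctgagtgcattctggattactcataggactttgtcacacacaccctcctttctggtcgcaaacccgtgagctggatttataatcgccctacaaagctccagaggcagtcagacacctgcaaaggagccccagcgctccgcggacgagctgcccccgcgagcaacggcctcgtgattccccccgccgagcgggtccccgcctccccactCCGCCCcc
Gad2 promoter, chr2:22622077-22622326, plus strand: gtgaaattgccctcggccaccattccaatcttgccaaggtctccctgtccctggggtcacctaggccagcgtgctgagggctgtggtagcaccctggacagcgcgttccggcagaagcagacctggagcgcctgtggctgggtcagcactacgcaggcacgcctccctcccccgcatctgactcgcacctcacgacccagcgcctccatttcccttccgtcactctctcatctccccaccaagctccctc
Slc32a1 promoter, chr2:158610508-158610757, plus strand: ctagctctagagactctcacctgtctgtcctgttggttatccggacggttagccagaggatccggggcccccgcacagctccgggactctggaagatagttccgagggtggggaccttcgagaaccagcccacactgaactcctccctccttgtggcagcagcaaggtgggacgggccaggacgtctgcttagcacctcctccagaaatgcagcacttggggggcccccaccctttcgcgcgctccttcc
Reln promoter, chr5:22344706-22344955, minus strand: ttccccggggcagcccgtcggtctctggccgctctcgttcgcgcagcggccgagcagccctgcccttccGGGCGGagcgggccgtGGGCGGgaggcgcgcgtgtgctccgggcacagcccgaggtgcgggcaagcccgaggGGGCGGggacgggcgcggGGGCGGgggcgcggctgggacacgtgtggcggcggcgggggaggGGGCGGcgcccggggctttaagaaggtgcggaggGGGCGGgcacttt
The Reln window held 6 GC boxes and 80.0% G and C bases. The Gad1 window held 1 GC box, and those of Gad2 and Slc32a1 held 0. Over all 32851 RefSeq windows of the same length in the table, 32.7% held a GC box. Of the 9 genes, 7 had entries in the table, with 10 windows in all, and 4 windows of 3 genes (Gad1, Reln and Lhx6) held a GC box. The palindrome TAATTA, a core motif of homeodomain factors, was in 0 of the 10 windows, against 4.84% of all windows. The E box CACGTG was in 1 of the 10, that of Reln, against 6.02% of all windows. These matches describe the letters of the windows and are no measure of binding.

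The median of an array was 38.6 to 42.0, in the linear GCRMA-normalized units used throughout. The 4 arrays numbered 1 or 2 correlated with each other at r = 0.987 to 0.995 across tested probe sets. Both arrays numbered 3 stood apart, with r = 0.867 to 0.916 to the others and 0.973 to each other. Results are therefore also given without them and within each replicate number. For S100a10, the brightest of 3 probe sets read 2222, 2037 and 349 on the FLX arrays 1 to 3, against 3111, 2248 and 643 on the VEH arrays. This probe set is of the x_at type, which can match several transcripts, and the sources used here do not place it relative to the deletion, so it does not check the genotype. The other S100a10 probe sets were below the minimum on each array, at 41.9 to 44.5 in FLX and 34.02 to 49.4 in VEH arrays for one and 7.35 to 8.22 in FLX and 4.98 to 8.03 in VEH arrays for the other. All 13 pyramidal neuron markers with a single-symbol probe set were tested, among them Neurod6, a transcription factor of cortical pyramidal cells, at 3536 to 5731 over the 6 arrays.

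No interneuron gene differed between FLX and VEH arrays past the threshold, an adjusted p of 0.05 in limma, and neither did any of the 22200 probe sets (0.0% called). With the replicate number as a block, which takes out what equal-numbered arrays share, 0 were called as well (0.0%). In fits added after seeing the data, the block without pair 2 called 86 of 22287 probe sets (0.386%), the block without pair 1 called 1 (0.00449%) and the block without pair 3 called 0 (0.0%), and 0 of the 9 genes were among the calls of any of them. Few arrays remain in these fits. Without pair 2 the SEs of the 9 genes ran only from 0.293 to 0.295, so the calls mostly follow the size of the difference. The 9 mean differences all lay above 0, with a median of 0.38 on the log2 scale and a range of 0.05 (Pvalb) to 0.55 (Reln). Of all tested genes by their brightest probe set, 58.1% lay above 0 and the median was 0.05. The groups overlapped in 9 of 9 genes, where 4.33% of all tested probe sets did not overlap in one direction or the other. Limma's adjusted p was 0.9998 for each of the 14 probe sets, and with the block it ran from 0.623 to 0.996. An unadjusted limma p under 0.05 was reached by 0 of the 9 genes (0.374% of probe sets) and with the block by 2, Calb1 and Reln (7.95%). The median of the 9 was -0.16 without the FLX replicate 3 array, 0.07 without VEH replicate 1 and 0.24 without both arrays numbered 3. In that last setting Lhx6 was at 0.07, Dlx1 at 0.18 and Slc32a1 at 0.30, each lower than its value from all arrays by more than 1.5 times, while Gad1 was at 0.24, Gad2 at 0.32, Calb1 at 0.42 and Reln at 0.52. The median of the 9 was 0.26 without VEH replicate 2 and reached 0.69 without VEH replicate 3, 0.63 without FLX replicate 2 and 0.56 without FLX replicate 1. In the plot of values by array, most genes show the same arrangement, with the triangles of replicate 3 at the top of both groups.

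**Figure D1:**
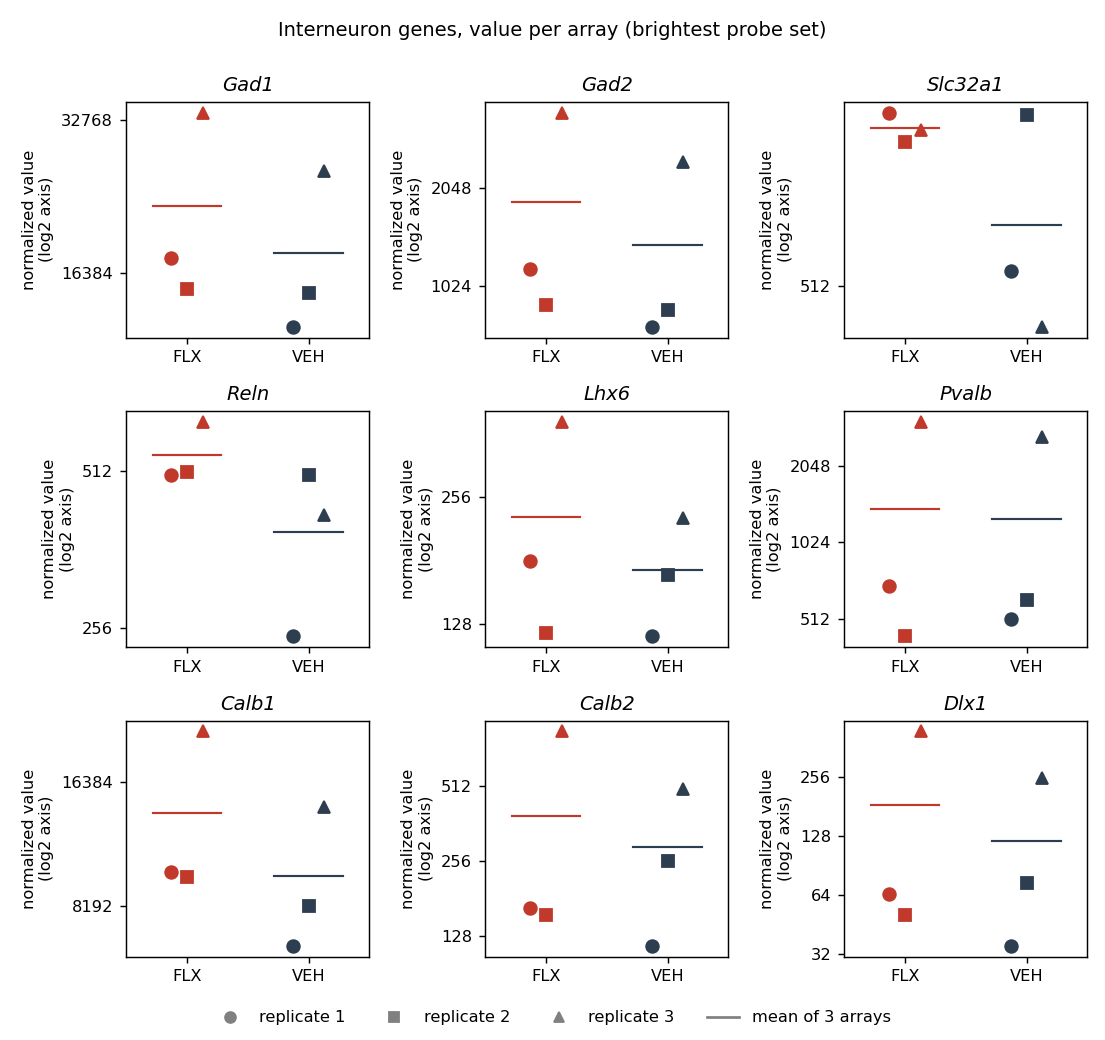
Normalized value (linear units on a log2 axis) of each of the 9 genes by its brightest probe set, FLX left and VEH right. Symbols are single arrays by replicate number and lines are means of 3 arrays. Replicate 3 is the highest array of its group in both groups for 7 genes and in neither group for Slc32a1, and for Reln it is highest in FLX alone.

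The decarboxylase genes were higher in FLX on average by less than the spread of the arrays. Gad1 had values of 17507, 15244 and 33896 on the FLX arrays, in the order of replicates 1 to 3 kept below, against 12828, 14968 and 25962 on the VEH arrays. Replicate 3 was the high array in both groups, and VEH replicate 1 was the lowest of the 6. Means were 22216 ± 10179 in FLX and 17919 ± 7047 in VEH arrays (SD, n = 3 each), a log2 difference of 0.29 (SE 0.42). A dimmer Gad1 probe set, at 112 to 604, had a difference of 0.45 (SE 0.67). Gad2 had 1153, 895 and 3502 in FLX arrays, against 764, 864 and 2462 in VEH arrays. Its order over the 6 arrays was the same as that of Gad1, with FLX replicate 3 at the top and VEH replicate 1 at the bottom. The log2 difference was 0.38 (SE 0.68). The other Gad2 probe set, at 162 to 1201, gave 0.01 (SE 0.85), with 0.08, -0.80 and 0.74 in pairs 1 to 3, so the probe sets of this gene did not give 1 value for treatment. Without FLX replicate 3, Gad1 was at -0.064 and Gad2 at -0.21, and without VEH replicate 1 they were at 0.080 and 0.074.

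Slc32a1, the vesicular GABA transporter, had the tightest FLX group of the 9 genes. Its values were 884, 806 and 836 in FLX arrays, against 536, 878 and 449.6 in VEH arrays. VEH replicates 1 and 3 lay below all FLX arrays, and VEH replicate 2 lay among them. Means were 842 ± 39.5 in FLX and 621 ± 226 in VEH arrays (SD, n = 3 each), a log2 difference of 0.50 (SE 0.29), positive with any single array left out (0.29 to 0.78). A dimmer probe set, at 77.2 to 103, had a difference of -0.16 (SE 0.20), the 1 negative value of the 14 tested probe sets. It was lower in FLX in pairs 2 and 3, so the direction for this gene rests on the brighter probe set. The remaining 2 probe sets of Slc32a1 were below the minimum, at 37.5 to 42.2 and 3.17 to 3.93.

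Reln had the largest mean difference of the 9. Its values were 503, 509 and 636 in FLX arrays, against 247, 504 and 421 in VEH arrays. VEH replicates 1 and 3 lay below the FLX arrays, and VEH replicate 2 lay between FLX replicates 1 and 2. Means were 549 ± 74.8 in FLX and 390.4 ± 131 in VEH arrays (SD, n = 3 each), a log2 difference of 0.55 (SE 0.31). With 1 array left out this ran from 0.25, without VEH replicate 1, to 0.76, without VEH replicate 2. The second Reln probe set was below the minimum, at 7.84 to 14.2.

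The reelin receptors Vldlr and Lrp8 and the adaptor Dab1, through which neurons respond to reelin, were all tested and 0 of 3 passed. Their log2 differences were 0.06 (SE 0.34), 0.21 (SE 0.28) and 0.29 (SE 0.65). Vldlr had 1241, 1229 and 607 in FLX arrays, against 822, 1085 and 917 in VEH arrays, so that it was higher in FLX in replicates 1 and 2 and lower in replicate 3.

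Of the transcription factor genes, Dlx1 had 64.6, 50.5 and 436 in FLX arrays, against 35.1, 73.0 and 253 in VEH arrays. Its mean was 184 ± 219 in FLX and 120.3 ± 116 in VEH arrays (SD, n = 3 each), and outside replicate 3 its values lay on both sides of the minimum of 50. The log2 difference was 0.38 (SE 1.06), and it turned to -0.60 without FLX replicate 3 and to -0.27 without VEH replicate 1. Lhx6 had 181, 122 and 387 in FLX arrays, against 119, 167 and 228 in VEH arrays. The arrays of the groups alternated from VEH replicate 1 up to FLX replicate 3, and the log2 difference was 0.30 (SE 0.48), with -0.16 without FLX replicate 3 and 0.06 without VEH replicate 1. A second Lhx6 probe set was below the minimum, at 3.49 to 4.50.

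Among the calcium-binding protein genes, Calb1 was higher in FLX in each replicate number. Its values were 9911, 9597 and 21805 in FLX arrays, against 6532, 8186 and 14257 in VEH arrays. The log2 differences were 0.60, 0.23 and 0.61 in replicates 1, 2 and 3, while between groups VEH replicate 3 exceeded FLX replicates 1 and 2. Means were 13771 ± 6959.5 in FLX and 9658 ± 4067 in VEH arrays (SD, n = 3 each), a difference of 0.48 (SE 0.45). The difference ran from 0.09, without FLX replicate 3, to 0.80, without VEH replicate 3. Both other tested Calb1 probe sets, at 151 to 882 and 89.7 to 706, were also higher in FLX in all 3 pairs, with means of 0.61 (SE 0.74) and 0.40 (SE 1.01). The fourth was below the minimum, at 5.54 to 6.90.

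Pvalb, the marker of fast-spiking cells, had 689, 438 and 3045 in FLX arrays, against 512, 607 and 2664 in VEH arrays. The arrays numbered 3 were far above the rest, and FLX replicate 2 was the lowest of all 6. The log2 difference of 0.05 (SE 0.93) was the smallest of the 9 genes, and it was below 0 without FLX replicate 3 (-0.77), VEH replicate 1 (-0.39) or VEH replicate 2 (-0.27). Calb2 had 167, 156 and 844 in FLX arrays, against 117, 257 and 498 in VEH arrays. VEH replicate 2 exceeded both FLX replicates 1 and 2, and the log2 difference was 0.18 (SE 0.83), with -0.61 without FLX replicate 3 and -0.35 without VEH replicate 1. Without both arrays numbered 3, Pvalb was at -0.022 and Calb2 at -0.11.

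Compared by equal replicate number, FLX was above VEH in 9 of 9 genes in replicate 1 and in 9 of 9 in replicate 3, but in 4 of 9 in replicate 2. The median differences were 0.60, -0.12 and 0.61 in replicates 1, 2 and 3. Arrays numbered 1 and 2 were matched across groups by label alone. Over all tested genes 51.3%, 48.0% and 61.5% were above 0 in those pairs, with medians of 0.01, -0.01 and 0.15. Of 13 tested pyramidal markers 12, 8 and 8 were above 0 in pairs 1 to 3, with medians of 0.43, 0.04 and 0.33. For 7 tested MGE genes the counts were 6, 3 and 4, with medians of 0.44, -0.10 and 0.23. For 9 tested CGE genes they were 4, 1 and 8, with medians of -0.12, -0.15 and 0.53. A rise in pair 1 was thus not particular to the 9 genes. By the brightest probe sets, the 4 of the 9 genes higher in all 3 pairs were Gad1, Gad2, Reln and Calb1, and 20.2% of all tested genes were. The other tested Gad2 probe set was lower in pair 2, at -0.80. In Gad1, Gad2 and Reln the replicate 2 difference was 0.03, 0.05 and 0.02, close to 0. The other 5, Slc32a1, Lhx6, Pvalb, Calb2 and Dlx1, were higher in replicates 1 and 3 and lower in replicate 2, with differences there of -0.12 to -0.72, a pattern of 13.2% of all tested probe sets. FLX replicate 3 was the highest array for 8 of the 9 genes and VEH replicate 1 the lowest for 7, which had both (31.2%, 16.4% and, for both, 9.63% of tested probe sets). Degraded RNA gives less signal at the 5′ end of a transcript, and the log2 ratio of 3′ to 5′ control probe sets, averaged over Gapdh and Actb, was 2.20, 2.09 and 2.08 on the FLX arrays 1 to 3, against 2.33, 2.18 and 2.19 on the VEH arrays. This average was thus highest in VEH replicate 1 and lower in the FLX array of each pair, but the 2 controls differed. Gapdh was highest in VEH replicate 1 (2.32) and Actb in VEH replicate 3 (2.56). In pair 3 Gapdh was about equal, at 1.831 in FLX and 1.830 in VEH. The part of this ratio in the differences was not tested.

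**Figure D2:**
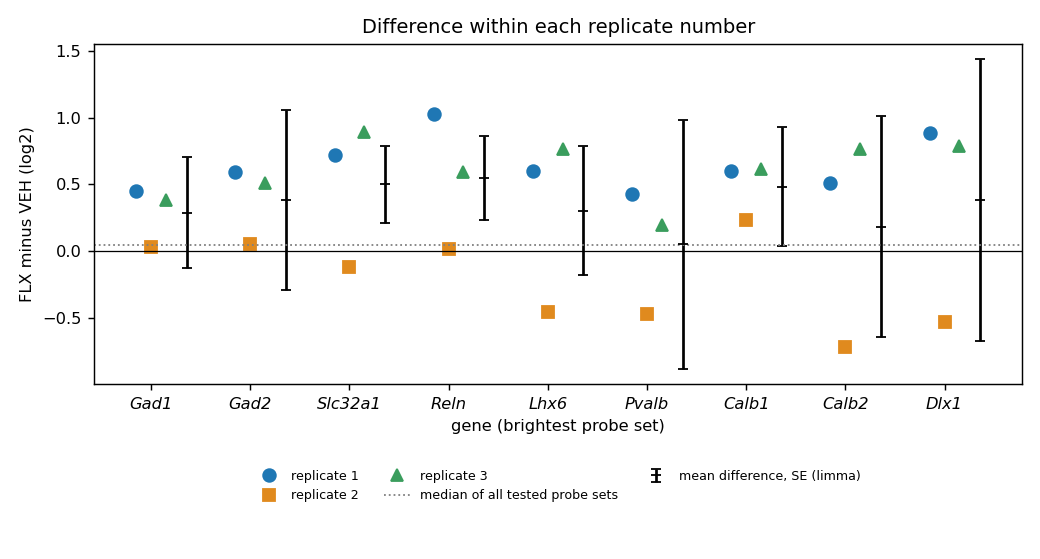
FLX minus VEH on the log2 scale for each gene within replicate 1, 2 and 3 (symbols), with the mean difference and its SE from limma in black. The dotted line is the median of all tested probe sets, 0.04. Differences in replicates 1 and 3 are above 0 for 9 of 9 genes, and those in replicate 2 lie between -0.72 and 0.23.

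The difference between the arrays numbered 3 and the others was larger than that between treatments for 7 of the 9 genes and went the same way in both groups. Relative to the mean log2 value of replicates 1 and 2, Dlx1 was 7.64-fold higher in FLX replicate 3 and 5.00-fold higher in VEH replicate 3. Pvalb was 5.55-fold and 4.78-fold higher, Calb2 5.23-fold and 2.87-fold, and Gad2 3.45-fold and 3.03-fold (FLX and VEH). Gad1 stood at 2.07-fold and 1.87-fold, Calb1 at 2.24-fold and 1.95-fold and Lhx6 at 2.61-fold and 1.62-fold. Reln was close to replicates 1 and 2, at 1.26-fold and 1.19-fold. Slc32a1 was the exception in direction by its brightest probe set, at 0.99-fold in FLX and 0.66-fold in VEH. Its dimmer tested probe set was at 1.06-fold in FLX and 1.08-fold in VEH. Replicate 3 was higher in both groups for 8 of the 9 genes, against 42.8% of all tested probe sets. At least 2-fold in both groups was reached by 4 of the 9 genes, against 5.07% of all tested genes. It was also reached by 5 of 13 tested pyramidal markers, so the step was not particular to the interneuron genes. In the other GABAergic lists described below it was reached by 2 of 3 pan-GABAergic, 1 of 7 MGE and 2 of 9 CGE genes. The median of the 9 was 1.38 in FLX and 0.96 in VEH on the log2 scale, against 0.05 and -0.10 over all tested genes. These are descriptions with no test, since the standing of replicate 3 was known from earlier results of these data.

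Probe sets of the same gene differed in the size of this step. The dim Gad1 probe set was 3.27-fold and 2.98-fold higher in replicate 3 (FLX and VEH), above the figures for the bright one. For Calb1 the brightest probe set gave 2.24-fold and 1.95-fold, and the dimmest tested one, at 89.7 to 706, gave 5.03-fold and 7.17-fold. The dim Gad2 probe set gave 6.20-fold and 2.88-fold, above the bright one in FLX and below it in VEH. The 5 member probe sets below the minimum were higher in replicate 3 of both groups, by 1.03-fold to 1.09-fold in FLX and 1.12-fold to 1.78-fold in VEH arrays, and VEH replicate 3 was the highest array in 5 of 5. At values of 3.17 to 42.2 they do not show whether the step is present.

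**Figure D3:**
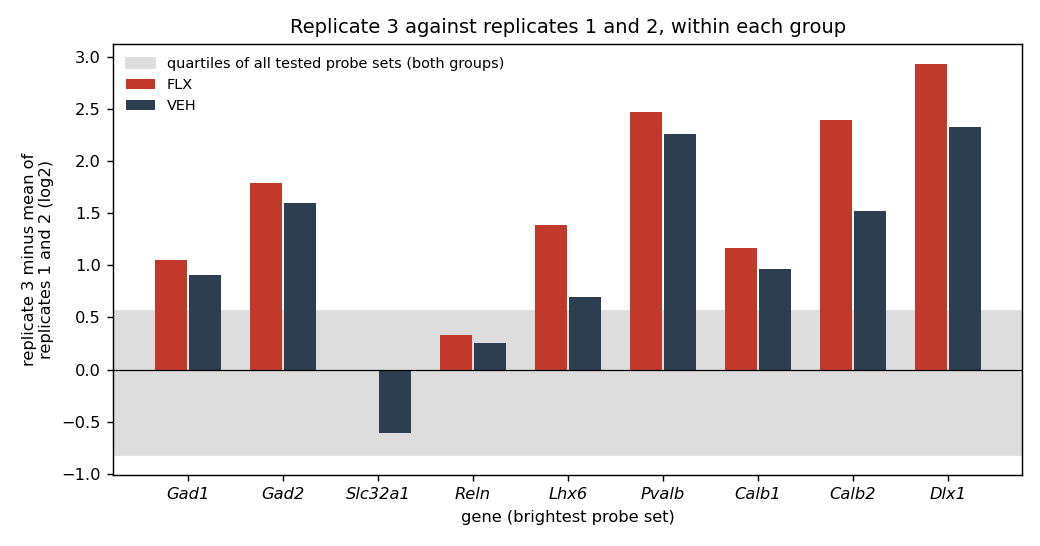
Replicate 3 minus the mean of replicates 1 and 2 on the log2 scale, for FLX and VEH arrays separately (1 bar per group and gene). The grey band runs from -0.82 to 0.56, the lowest and highest quartile of all tested probe sets over both groups. Bars of 7 genes rise above the band in both groups, while those of Slc32a1 and Reln lie within it.

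Other genes of the GABAergic lineage, from lists chosen with earlier results known, included some that followed the same order of arrays and some that did not. Of 7 other pan-GABAergic genes, 5 had a single-symbol probe set and 3 were tested, with 0 past the threshold, 3 above 0 and a median log2 difference of 0.20. Abat, the enzyme that breaks GABA down, had 1409.5, 1519.9 and 3550.4 in FLX arrays, against 1328.5, 1303 and 2894 in VEH arrays, and Dlx6 had a difference of 0.29 (SE 0.39). All 3 were higher in replicate 3 in both groups. Of 7 tested genes of the MGE lineage 0 passed, 5 were above 0 and the median was 0.21. Nxph1, a secreted ligand of neurexins, had 386, 389 and 543 in FLX arrays, against 285, 417 and 357 in VEH arrays. Satb1 and the potassium channel gene Kcnc2 had differences of 0.09 (SE 0.29) and 0.30 (SE 0.28). Sox6, a transcription factor of MGE-derived cells that was picked for its values, had 180.4, 196 and 1352 in FLX arrays, against 129, 174 and 784 in VEH arrays. In replicate 3, 5 of the 7 were higher and 2 lower in both groups, and Sox6 was the 1 gene at least 2-fold higher in both. The lower ones were Maf, a transcription factor, at -0.9998 in FLX and -1.14 in VEH, and Kcnc2 at -0.51 in FLX and -0.59 in VEH (log2 differences of replicate 3 from replicates 1 and 2).

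Of 9 tested CGE genes 0 passed, 6 were above 0 and the median was 0.01, and in replicate 3 they went both ways, with 4 higher and 5 lower in both groups. Adarb2, a marker of CGE-derived interneurons, had 159, 142 and 545 in FLX arrays, against 96.5, 141 and 302 in VEH arrays, a difference of 0.53 (SE 0.66). Prox1, a transcription factor of the same lineage, had 43.6, 45.2 and 53.2 in FLX arrays, against 52.3, 56.2 and 56.2 in VEH arrays. Nr2f1, the brightest gene of the list, differed by -0.02 (SE 0.22). Of 5 tested genes of perineuronal nets, the matrix around many parvalbumin cells, 0 passed, 4 were above 0 and the median was 0.15. Ncan and Hapln4 had differences of 0.31 (SE 0.27) and 0.40 (SE 0.36), and Bcan differed by 0.01 (SE 0.44). In replicate 3, Ncan and Hapln4 were lower in both groups. Hapln1 was higher there in both groups, as Pvalb was, by 0.90 in FLX and 0.62 in VEH on the log2 scale. Bcan and Tnr were lower there in FLX and higher in VEH.

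Markers of other cells that make some of these transcripts were examined for the same arrays. The 5 Cajal-Retzius markers Trp73, Lhx1, Lhx5, Ebf3 and Cxcr4 were all below the minimum, and their summed value was 60.6 to 70.0 in FLX and 55.1 to 72.1 in VEH arrays. Of 12 striatal projection neuron markers 10 had a single-symbol probe set and 9 were tested, with 0 past the threshold, 6 above 0 and a median of 0.26. Their summed value was 4399 to 8392 in FLX and 3800.1 to 6693 in VEH arrays, highest in replicate 3 of each group, with Drd2 below the minimum. Of the 9, 6 were higher and 3 lower in replicate 3 in both groups, and Pde10a made up most of the summed value there. Pde10a, a phosphodiesterase abundant in striatal neurons, had 2508, 2510.2 and 5624 in FLX arrays, against 2622, 1886 and 3859.6 in VEH arrays. Drd1 had a difference of 0.26 (SE 0.22) and Ido1 0.51 (SE 0.25). Of 13 tested pyramidal markers 0 passed, 11 were above 0 and the median was 0.21. Their summed value was 18460.3 to 37189.6 in FLX and 17959.6 to 32044 in VEH arrays, again highest in replicate 3. Singly, 7 of the 13 were higher and 4 lower in replicate 3 in both groups. Slc17a6, a vesicular glutamate transporter, and Rorb, a nuclear receptor of layer 4 cells, had differences of 0.62 (SE 0.69) and 0.37 (SE 0.26). Both were among those lower in replicate 3.

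Glial, vascular and meningeal markers went different ways in replicate 3. The summed value of 6 oligodendrocyte markers was 24900.2, 28033 and 66131 on the FLX arrays 1 to 3, against 24415, 28159 and 65096 on the VEH arrays, so that it was highest in replicate 3 of both groups, as most of the interneuron genes were. Cnp and Mbp (myelin basic protein) made up most of this sum, with 37344 and 27004 in FLX replicate 3. Of the 6, 4 were higher and 2 lower in replicate 3 in both groups. Mbp was higher there by 2.02 in FLX and 1.81 in VEH on the log2 scale. The lower ones were Cldn11, at -2.81 in FLX and -2.57 in VEH, and Mag, at -0.87 in FLX and -1.37 in VEH. The summed value of 8 leptomeningeal markers was 28329 to 95756 in FLX and 44236 to 97394 in VEH arrays, and 8 of 8 were lower in replicate 3 in both groups. That of 8 astrocyte markers was 11519.7 to 29308 in FLX and 8626 to 25961 in VEH arrays, lowest in replicate 3 of both groups, with 3 markers higher and 3 lower there in both. Sums for 7 microglia markers were 1934 to 2833 in FLX and 1506 to 2893 in VEH arrays, and for 6 endothelial markers 165 to 309.97 in FLX and 111 to 313 in VEH arrays, also lowest in replicate 3. No value on any array was 0 (the lowest was 1.60), so the lack of zeros does not show that a marker was present. Of these markers, Itgam, Pecam1, Cdh5, Tek and Flt1 were below the minimum.

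Median treatment differences were 0.32 for astrocyte, 0.05 for oligodendrocyte, -0.24 for leptomeningeal, 0.14 for microglia and 0.52 for the 2 tested endothelial markers, with 0 past the threshold in each. The astrocyte markers Gfap and Aqp4, named after their values were seen, had larger mean differences than any of the 9 interneuron genes. Gfap, an intermediate filament of astrocytes, had 370.03, 372 and 1546 in FLX arrays, against 109, 159 and 547 in VEH arrays. Its log2 difference was 1.496 (SE 0.81), with 1.77, 1.22 and 1.498 in pairs 1 to 3, and limma's adjusted p with the block was 0.574. Aqp4, an astrocyte water channel, had a difference of 1.12 (SE 0.53), above 0 in all 3 pairs, and limma's adjusted p with the block was 0.623. The part of these cells in the values of the interneuron genes was not tested.

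**Figure D4:**
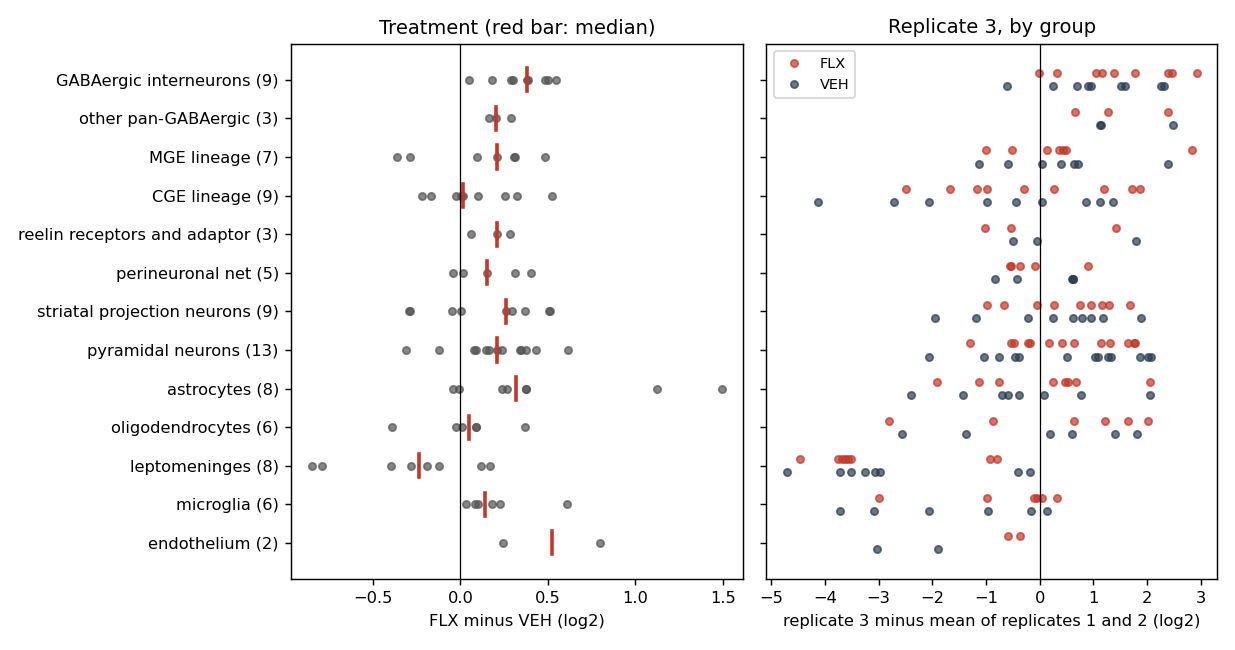
Left, FLX minus VEH on the log2 scale for each tested gene of each list, with the median as a red bar and the number of tested genes in brackets. Right, replicate 3 minus the mean of replicates 1 and 2 for the same genes in FLX and VEH arrays. The 9 interneuron genes have a median of 0.38 on the left and lie mostly above 0 on the right, where the 8 leptomeningeal genes are all below 0.

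The mean profile of Gad1, Gad2 and Slc32a1, their mean log2 value in each array, was 11.35, 11.12 and 12.18 on the FLX arrays 1 to 3, against 10.76, 11.13 and 11.58 on the VEH arrays. Calb1 (r = 0.984), Lhx6 (0.968), Dlx1 (0.946), Calb2 (0.924) and Pvalb (0.879) followed it over the 6 arrays more closely than Reln (0.723). Slc32a1, although part of the profile, had r = 0.169 with it, against 0.973 for Gad1 and 0.948 for Gad2, which are also part of it. Of 9120 other genes with an SD over the arrays of at least 0.5 times that of the profile, 402 had r of at least 0.95. The 5 most alike were Rraga (0.997), Psip1 (0.997), Napg (0.996), Tmcc1 (0.996) and Zfp763 (0.996). Rraga, for example, had 832, 675 and 1379 in FLX arrays, against 567, 693 and 931 in VEH arrays. The points of these correlations are the same 6 arrays, of which the pair numbered 3 sets most of the spread, so they describe these arrays alone.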

How the data were processed

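Per the labels' protocols, 15 ng of RNA from immunoprecipitated ribosomes went through 2 cycles of amplification with biotin labelling before hybridisation. The deposited values are probe set intensities that the authors normalized with GCRMA, a step named in the submitters' processing notes without settings. They were read as linear from the values, which ran from 1.60 to 76587. Of 45101 probe sets 64 were controls. Of the rest, 34945 carry 1 gene symbol in the platform annotation, 932 carry several and 9160 are unnamed here.

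Log2 values of the 22200 probe sets with a group mean of 50 or more were tested with limma 3.58.1 in R 4.3.3 (treatment only, eBayes, two-sided, Benjamini-Hochberg over all probe sets, threshold 0.05). The script was tested on simulated data. For the fit without a block, those data held no replicate differences shared by the groups, unlike the real arrays. Differences are FLX minus VEH and errors of means are SDs. With 3 arrays per group, an exact permutation test cannot go below p = 0.1, and the number of arrays limits the precision. Nothing says how many animals stand behind an array, so p-values set a difference against the spread between these arrays, not between animals. In the fit without a block, that spread includes what sets the arrays numbered 3 apart.

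Deviations from group means correlated at r = 0.70, 0.84 and 0.87 between arrays numbered 1, 2 and 3, above the limit of 0.1 set for pairing. Unlike numbers reached 0.76 (FLX 2 with VEH 1) and 0.64 (FLX 1 with VEH 2). The check therefore sets the arrays numbered 3 apart but cannot tell pair 1 from pair 2, which rest on the labels. The members and lists were chosen with earlier results of these data known. Named genes were all 9 members and the 5 genes most like the profile. Of each list of related genes or neurons, the 2 genes with the smallest p and the brightest gene were named. Glial, vascular and meningeal lists are given mainly as sums and counts. Sox6, Maf, Hapln1, Tnr, Mbp, Cnp, Mag, Cldn11, Gfap and Aqp4 were named besides, with their values known. Promoter windows are from RefSeq (GRCm38.p6). Figures were drawn with matplotlib 3.10.9.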

Additional observations from a re-analysis of the deposited data

How the results depend on the processing

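Over the 15 alternatives set out in advance of these fits, 0 probe sets and 0 of the 9 genes passed limma's threshold, including with the replicate block, a pseudocount of 16, no filter, a filter at 100, subtracted array medians, an intensity trend, array weights and, for the genes, averaging each gene's tested probe sets. Of 3 fits chosen after seeing the data, the replicate block without pair 2 called 86 probe sets (27 higher, 59 lower), that without pair 1 called 1 and that without pair 3 called 0, with 0 of the 9 genes among them, and the cause was not tested. Few arrays remain in each of these fits. The paired fit with the replicate block gave the same median of 0.38, changed no call, and raised the number of probe sets with an unadjusted p under 0.05 to 1764, against 83 without it. The array weights did not converge, with a weight of 133 on FLX replicate 1, so that fit is not relied on. It gave 6767 such probe sets and put Calb2 at -0.11. Of 162 values for single genes, 146 kept their direction and 16 turned negative, 15 of them from leaving out arrays, and the cause was not tested. With 1 array left out in turn the median of the 9 ran from -0.16 to 0.69, Gad1 from -0.064 to 0.59, Gad2 from -0.21 to 0.92, Lhx6 from -0.16 to 0.67, Pvalb from -0.77 to 0.80, Calb2 from -0.61 to 0.69 and Dlx1 from -0.60 to 1.15. Without both arrays numbered 3, with or without the block, Pvalb was -0.022 and Calb2 -0.11, and with the block without pair 1 Pvalb was -0.14. Calb1, Reln and Slc32a1 stayed above 0 under each of the 18. Probe sets near 50, such as Dlx1 in replicates 1 and 2, lie close to the lower end of the tested range.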
